A study of Mus musculus with 26 samples.

Results

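Respiratory complex I genes were taken as every gene of the RNA count table whose symbol starts with Nduf, and 45 of the 23762 genes in the table met that rule. Of these, 38 were grouped as subunits and 7 as assembly factors, whose symbols start with Ndufaf. By role the subunits held 7 core subunits, 9 accessory subunits of the matrix arm, 19 accessory subunits of the membrane arm, Ndufab1, which sits in both arms, and the pair Ndufa4 and Ndufa4l2. Counts were high enough to test 44 of the 45 genes, 37 subunits and all 7 assembly factors, among 14862 genes tested in all.

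Complex I, the NADH:ubiquinone oxidoreductase, takes electrons from NADH in the mitochondrial matrix and passes them along a flavin and a chain of iron-sulfur clusters to ubiquinone, while its membrane arm pumps protons. The core subunits are those shared with bacteria, accessory subunits surround and stabilise them, and assembly factors help to build the enzyme without staying in it. Some core subunits are encoded in mitochondrial DNA, and 0 of those genes were in the table. Ndufa4, despite its symbol, is known as a subunit of complex IV. Pre-B cells divide under interleukin 7 (IL-7), and its loss is known to accompany the passage to small resting pre-B cells that rearrange immunoglobulin light chain genes.

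The RNA came from flow-sorted mouse B-lineage cells in 9 groups of 2 libraries. Sorted small pre-B cells were either wild type or CXCR4-/-, which lack the receptor of the chemokine CXCL12. Pre-B cell cultures were labelled by medium as IL7+, as IL7-, as IL7- with CXCL12, as IL+ with CXCL12, and as IL- with CXCL12 and ERK inhibitor II, a compound named for blocking the kinase ERK. CXCR4-/- small pre-B cells made up the last pair of groups, cultured without IL-7 and either lacking or given CXCL12. The labels gave no strain, age, dose, time or Cre line, and left unsaid whether a group's libraries are from different mice or cultures. A p-value therefore covers the spread between libraries, which may be technical.

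Libraries held 17257914 to 50235192 counts. Cxcr4, the gene targeted in the CXCR4-/- groups, was at 943 and 922 CPM (counts scaled to 1000000 per library) in sorted wild-type cells and in libraries labelled sorted CXCR4-/- at 37.2 and 409 CPM. It was at 114 to 137 CPM in the 4 libraries labelled CXCR4-/- cultures and at 112 to 322 CPM in the 10 other culture libraries. Which exon was deleted is not stated in the labels, so these counts do not settle the genotype, and directions by genotype below follow the labels. The 4 libraries of the groups IL+ with CXCL12 and IL- with CXCL12 and ERK inhibitor II had Gapdh, a glycolytic enzyme, at 1399 to 1730 CPM, against 1.05 to 12.3 CPM in the other 14. The labels name no batch, so sets of libraries are inferred here. Those 4 libraries were taken as 1 set by their Gapdh. The CXCR4-/- cultures were taken as another, though Gapdh (2.81 to 3.92 CPM) does not set them apart. Comparisons of either set with the other cultures ran across sets, and set cannot be told apart from treatment or genotype there. Genes of B-lineage identity, summed over 10 markers, were at 4519 to 10554 CPM and all 10 averaged above 1 CPM in every group.

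Summed over the 38 subunits, expression stepped down over the IL7+, IL7- and IL7- with CXCL12 cultures. The sums were 2618 and 2572 CPM with IL-7, 2270 and 2306 CPM after its loss, and 1820 and 1846 CPM where CXCL12 was then present. In the libraries of high Gapdh, where set and treatment cannot be told apart, the sums were 2931 and 2795 CPM with both IL-7 and CXCL12. They were 2523 and 2555 CPM with CXCL12 and ERK inhibitor II without IL-7. Sorted wild-type cells were the lowest, at 1628 and 1767 CPM, and sorted CXCR4-/- cells had 2185 and 2075 CPM. The CXCR4-/- cultures had 3208 and 2741 CPM with CXCL12. Without IL-7 alone their replicates were at 10602 and 3685 CPM, so that replicate 1 stood apart from the other 17 libraries. The assembly factors, summed over 7 genes, ranged from 87.7 CPM in a sorted wild-type library to 384 CPM in that replicate.

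**Figure D1:**
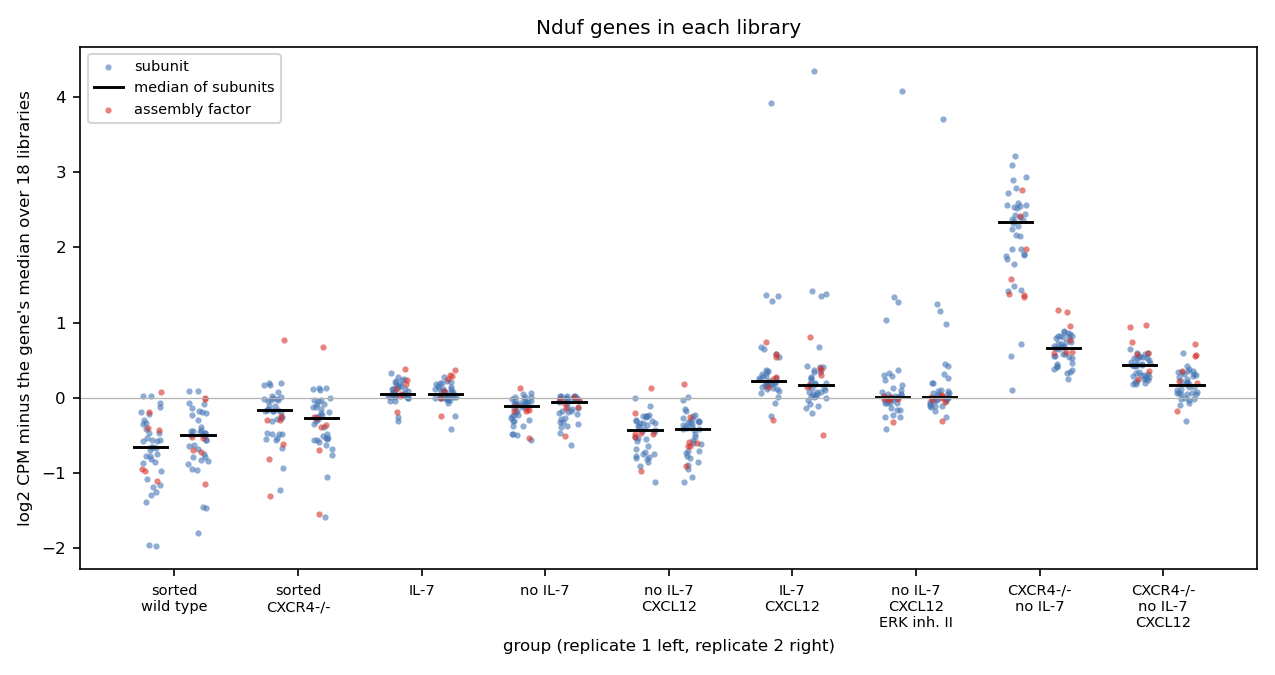
Each point is 1 of 36 subunits (blue) or 7 assembly factors (red) in 1 of 18 libraries, as log2 CPM minus the gene's own median over the 18 libraries, with a black bar at the median of the subunits. Replicate 1 of the CXCR4-/- cultures without IL-7 has a median of 2.34, the cultures without IL-7 with CXCL12 have medians of -0.43 and -0.41, and the 4 highest points are Ndufab1. Ndufs5 and Ndufa4l2 are not drawn.

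Replicate 1 of the CXCR4-/- cultures without IL-7 held more of almost every subunit than its partner. The median ratio of replicate 1 to replicate 2 (with 0.5 CPM added to each value) was 3.06 over the 37 subunits tested, and 32 of them were above 2-fold, against a median of 1 and 8.53% above 2-fold over all genes tested. Ndufa2, an accessory subunit of the matrix arm, was at 575 and 109 CPM, and Ndufb7, of the membrane arm, was at 658 and 150 CPM. Ndufs1, the largest core subunit and a carrier of iron-sulfur clusters, did not share that pattern and was at 143 and 172 CPM there. The median ratio was 1.95 for the 7 assembly factors. Among the other respiratory lists it was 2.89 for 30 complex IV genes, 2.02 for 20 ATP synthase genes, 1.80 for 12 complex III genes and 1.52 for 6 complex II genes, and it was 0.952 for 17 regulators of respiratory genes. Ribosomal protein genes had 2.45 and mitochondrial ribosomal protein genes 2.20.

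**Figure D2:**
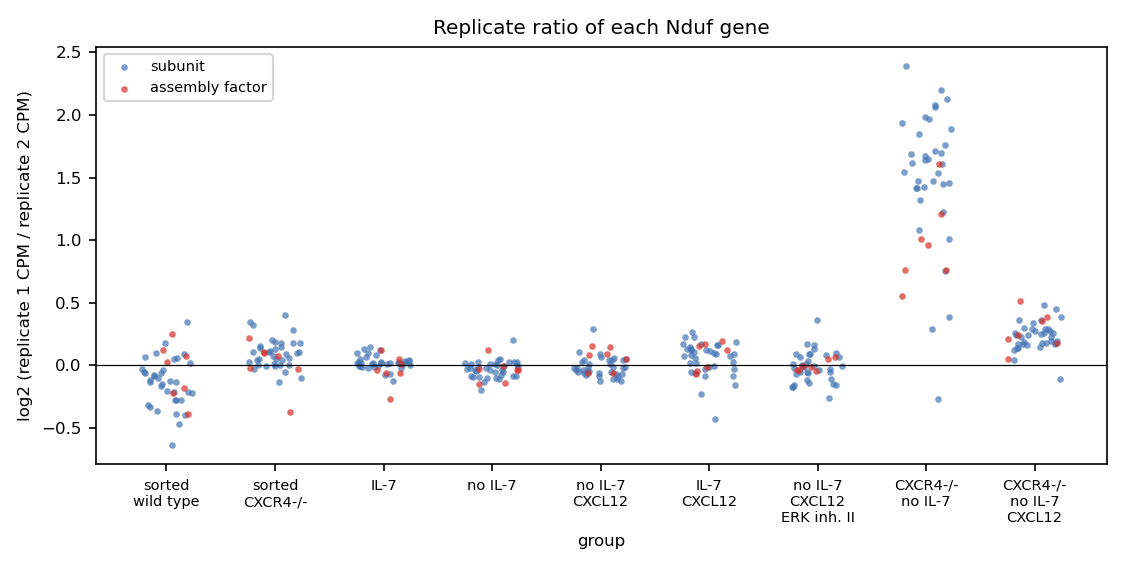
The ratio of replicate 1 to replicate 2, on a log2 scale, is drawn for 36 subunits (blue) and 7 assembly factors (red) in each of the 9 groups. Points lie near 0 in the other groups, while 32 of the 37 subunits tested exceed 2-fold (a log2 ratio of 1) in the CXCR4-/- cultures without IL-7.

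That library entered every test through the spread, which edgeR's quasi-likelihood test estimated for each gene over all 18 libraries. With it, the median quasi-likelihood dispersion of the subunits was 2.74, and without it 0.824, while over all genes tested the values were 0.688 and 0.626. Each comparison is therefore given from both fits, first with all 18 libraries and then without that replicate, named the high replicate below, where 15312 genes were tested. The second fit leaves 1 library in the CXCR4-/- cultures without IL-7. In comparisons with that group its SEs and calls rest on the spread of the other groups. Calls were made at an adjusted p (Benjamini-Hochberg, over every gene in the fit) under 0.05.

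Several promoters of these genes carry the binding motif of NRF1, a transcription factor known for nuclear genes of respiration. RefSeq windows of 300 bases, from 250 before to 50 after the annotated start (build GRCm38.p6), were matched for 33 of the 38 subunits and 6 of the 7 assembly factors. The motif, GCGCA, then any base, then GCGC, searched on both strands, was in 7 of the 33 subunit windows (21.2%), in 5.19% of the windows of 27025 genes, and in 10.6% of the 10659 tested genes that had a window. Windows of Ndufaf4 and Ndufaf5 held it too. AAGATGGCG, a motif of YY1, was in 5 of the 33 subunits (15.2%) against 3.22% of the tested genes, all after the annotated start: Ndufa9, Ndufc1, Ndufs4, Ndufs6 and Ndufs7. ACCGGAAG, a motif of ETS factors such as GABPA, was in 3 of 33 subunits (9.09%) against 4.85%. A match describes letters in the window and not a bound site. The 120 bases before the annotated start are shown for the tested Nduf genes that hold the NRF1 motif there, because they are the promoters of these genes that share an element, with the motif in capitals:
Ndufa5 (chr6:24527691-24527810, minus strand): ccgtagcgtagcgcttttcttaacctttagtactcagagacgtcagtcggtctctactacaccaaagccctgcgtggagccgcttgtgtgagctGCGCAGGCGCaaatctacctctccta
Ndufa8 (chr2:36049339-36049458, minus strand): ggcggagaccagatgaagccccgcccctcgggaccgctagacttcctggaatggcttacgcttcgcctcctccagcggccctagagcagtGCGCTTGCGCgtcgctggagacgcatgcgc
Ndufa11 (chr17:56717642-56717761, plus strand): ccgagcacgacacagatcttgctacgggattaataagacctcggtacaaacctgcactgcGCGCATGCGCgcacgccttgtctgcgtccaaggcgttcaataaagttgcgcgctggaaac
Ndufb4 (chr16:37654369-37654488, minus strand): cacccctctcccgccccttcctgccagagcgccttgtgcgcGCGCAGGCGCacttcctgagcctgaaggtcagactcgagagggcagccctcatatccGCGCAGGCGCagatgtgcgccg
Ndufs6 (chr13:73328483-73328602, minus strand): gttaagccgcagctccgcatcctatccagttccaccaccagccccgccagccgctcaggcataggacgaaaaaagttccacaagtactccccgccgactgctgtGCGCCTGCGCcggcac
Ndufaf4 (chr4:24897963-24898082, plus strand): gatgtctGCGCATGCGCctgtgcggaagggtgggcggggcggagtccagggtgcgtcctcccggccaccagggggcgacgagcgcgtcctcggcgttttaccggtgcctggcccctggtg
Ndufb4 has 2 matches in this stretch. In Ndufa5, Ndufa8, Ndufb4 and Ndufs6 a match begins 16 to 30 bases before the start. In Ndufa11 and Ndufaf4 the matched 10 bases read the same on both strands, so that each counts on both, and begin 60 and 113 bases before the start. All 6 of these genes were lower after both culture steps, with no overlap between the groups (38.4% of all genes tested were). So were 35 of the 37 subunits tested (94.6%) and 6 of the 7 assembly factors (85.7%), so these 6 are not set apart from other Nduf genes. Without IL-7 with CXCL12 against IL-7, from all 18 libraries, the log2 change was -1.20 ± 0.16 (SE) for Ndufaf4, -0.89 ± 0.44 for Ndufs6, -0.83 ± 0.37 for Ndufb4, -0.76 ± 0.46 for Ndufa5, -0.57 ± 0.31 for Ndufa8 and -0.34 ± 0.39 for Ndufa11. Of these 6, Ndufaf4 was called in that fit, where 21.5% of all genes were called lower, and all 6 were called without the high replicate, where 34.2% were. Most subunits were called lower in that second fit, with or without the motif. Differences between these genes, or between Nduf genes with and without the motif, were not tested.

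To see what the loss of IL-7 and the addition of CXCL12 did, the IL7+, IL7- and IL7- with CXCL12 cultures were compared pairwise (n = 2 each). The subunits stepped down over the 3 groups. In 30 of 37 subunits (81.1%) both libraries with IL-7 exceeded both without IL-7, and these exceeded both without IL-7 with CXCL12. The same order held for 6 of 7 assembly factors and for 21.7% of all genes tested, and the opposite order held for 0 subunits and for 29.5% of all genes. Taken pairwise, 31 subunits were lower without overlap after the loss of IL-7 and 0 higher (34.5% and 42.2% of all genes). With CXCL12 added there were 35 lower and 0 higher (35.8% and 48.4%), and for both steps 35 and 0 (38.4% and 49.4%).

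Among the core subunits, Ndufs1 was at 158 and 160 CPM with IL-7, 131 and 132 CPM after its loss, and 114 and 111 CPM with CXCL12 in its place. None of the 3 groups overlapped. Ndufv2, which holds an iron-sulfur cluster beside the flavin, was at 106 and 104 CPM, 92.0 and 95.1 CPM, and 59.4 and 60.2 CPM in the same order. Its largest step came with CXCL12. Ndufv1, which binds NADH and the flavin, was at 110 and 108 CPM, 101 and 98.9 CPM, and 77.3 and 74.9 CPM. Ndufs7, which carries the cluster nearest to ubiquinone, was at 55.9 and 55.8 CPM, 43.6 and 44.5 CPM, and 41.9 and 40.0 CPM, and most of its step came with the loss of IL-7. Ndufs8, another carrier of iron-sulfur clusters, was at 111 and 110 CPM, 101 and 104 CPM, and 87.7 and 88.6 CPM. Ndufs3, a structural core subunit of the matrix arm, was at 27.1 and 27.6 CPM, 21.7 and 23.1 CPM, and 21.5 and 22.7 CPM, and its last pair of groups overlapped.

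**Figure D3:**
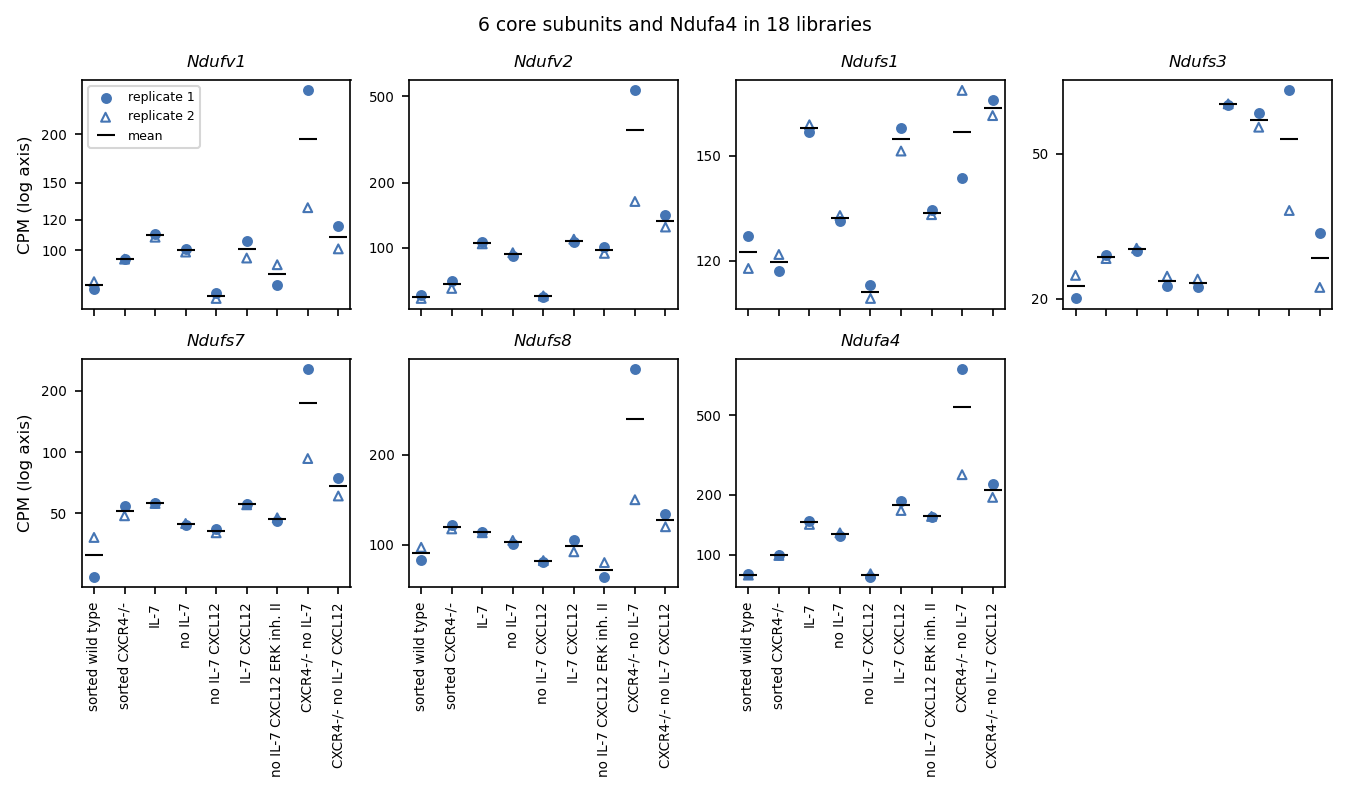
CPM on a log axis of 6 core subunits and Ndufa4 in all 18 libraries, with a filled circle for replicate 1, an open triangle for replicate 2 and a bar at the mean. In the IL7- with CXCL12 cultures Ndufv2 lies at 59.4 and 60.2 CPM, below the 106 and 104 CPM of the IL7+ cultures.

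Without IL-7 against with IL-7, 0 subunits were called higher and 0 lower by edgeR's quasi-likelihood test over 18 libraries, where 5.6% of the genes in the fit were higher and 6.23% lower. At an unadjusted p under 0.05 there were 2 lower and 0 higher, and DESeq2 called 1 lower. The median log2 change was -0.20 for the subunits and 0.05 for all genes tested, and 35 of 37 subunits had a negative change. Without the high replicate, 17 subunits were called lower and 0 higher, with 18.2% and 14.4% of all genes. These 17 included Ndufs1, at -0.30 ± 0.05 (SE, adjusted p = 0.00023), Ndufv2, at -0.20 ± 0.06 (adjusted p = 0.029), and Ndufs3, at -0.31 ± 0.11 (adjusted p = 0.048). By role they were 3 of 7 core subunits, 5 of 9 of the matrix arm, 8 of 18 of the membrane arm and Ndufa4.

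CXCL12 without IL-7 gave a larger step. With 18 libraries 1 subunit was called lower and 0 higher (13.2% and 17.3% of all genes): Ndufa10, an accessory subunit of the membrane arm with the fold of a nucleoside kinase. It was at 93.5 and 90.9 CPM without CXCL12 and at 70.8 and 71.4 CPM with it, a log2 change of -0.37 ± 0.09 (adjusted p = 0.0096). That call was lost without replicate 1 of the IL7- cultures and without either replicate with CXCL12, where the adjusted p reached 0.069. The other 36 subunits had negative changes too, and the median was -0.32 for the subunits against 0.09 for all genes tested. In the fit that omits the high replicate, 30 subunits were called lower (28.4% of all genes were), with a median of -0.42 beside 0.00 for all genes. In that fit Ndufa4 fell by 0.78 ± 0.07 on the log2 scale (adjusted p = 3.6e-07), from 124 and 129 CPM to 77.2 and 80.2 CPM. Ndufv2 fell by 0.74 ± 0.07 (adjusted p = 2.6e-07).

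Both steps together, no IL-7 with CXCL12 against IL-7, gave 5 subunits called lower and 0 higher with 18 libraries, where 21.5% of all genes were called lower and 29.8% higher. They were Ndufs1 (log2 change -0.50 ± 0.09, adjusted p = 0.00047), Ndufa10 (-0.65 ± 0.09, adjusted p = 0.00011), Ndufa9, a matrix-arm subunit with a dehydrogenase fold (-0.74 ± 0.18, adjusted p = 0.004), Ndufc2 of the membrane arm (-0.97 ± 0.36, adjusted p = 0.04) and Ndufa12 of the matrix arm (-1.12 ± 0.43, adjusted p = 0.044). Ndufa12 was at 27.1 and 26.8 CPM with IL-7, 18.3 and 19.4 CPM without it, and 12.4 and 12.3 CPM with CXCL12. Ndufc2 was at 73.2 and 72.0 CPM, 56.0 and 57.4 CPM, and 36.3 and 38.0 CPM. The calls of Ndufa12 and Ndufc2 were lost without any 1 of the 4 libraries compared, and those of the remaining 3 held. The median was -0.52 for the subunits and 0.12 for all genes tested. Leaving out the high replicate, 34 subunits were called lower (34.2% of all genes were), and the medians moved to -0.64 and 0.01. The subunits' median minus that of all genes was -0.64 and -0.65. Both fits use the same 4 libraries for this comparison, so that closeness was built in.

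Markers of dividing cells, stroma, myeloid cells, mature B cells and T cells differed between these groups. Summed over 11 genes of dividing cells, the libraries held 5921 to 5980 CPM with IL-7, 6093 to 6130 CPM without it and 2083 to 2084 CPM without IL-7 with CXCL12. Stromal genes, 15 in all, summed to 634 and 1093 CPM, 1567 and 1534 CPM, and 4014 and 3927 CPM, and 2 of the 15, Dcn and Lum, averaged under 1 CPM in the last group. Myeloid genes, 13 in the table, summed to 185 to 251 CPM, 341 to 345 CPM, and 862 to 865 CPM, and averaged at least 1 CPM each in the last group. The 8 mature B cell genes summed to 425 to 463 CPM, 544 to 553 CPM, and 767 to 785 CPM, with 1 under 1 CPM in the last group. The 8 T cell genes summed to 148 to 149 CPM, 110 to 112 CPM, and 35.5 to 36.9 CPM, with 6 under 1 CPM in each group. In bulk RNA, fewer cells of a type and less RNA per cell cannot be told apart, and the part of these markers in the Nduf changes was not tested.

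**Figure D4:**
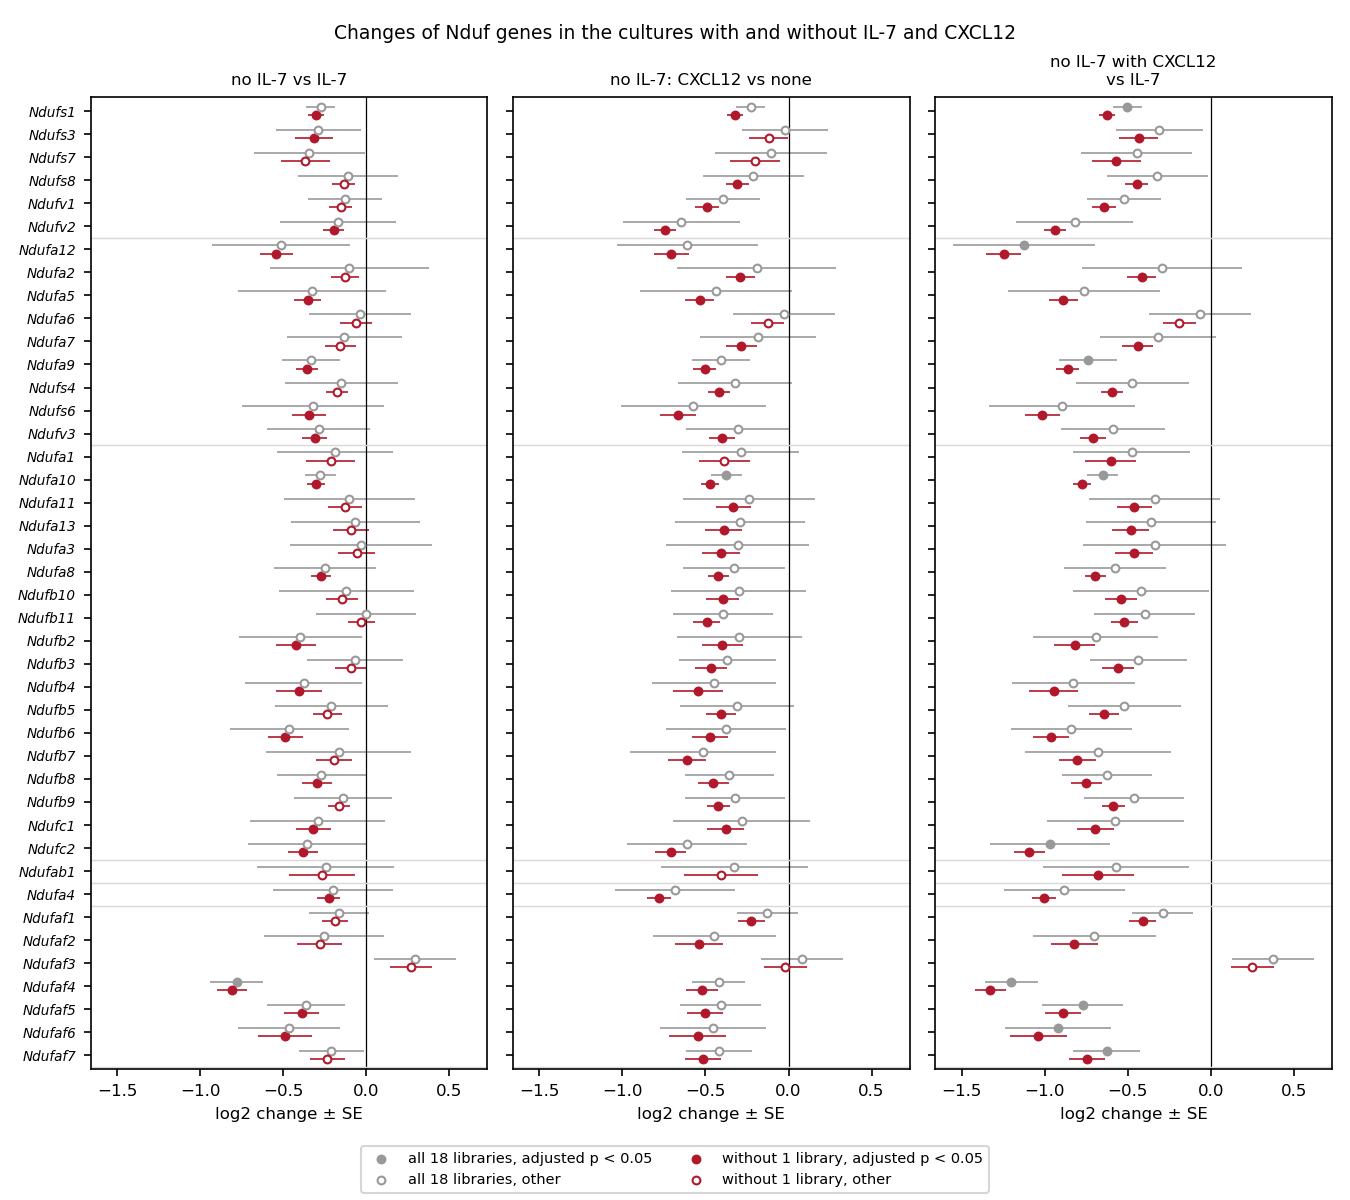
Log2 changes with SE of 35 subunits and 7 assembly factors in the 3 comparisons of the IL7+, IL7- and IL7- with CXCL12 cultures, in grey from all 18 libraries and in red without the high replicate, filled where the adjusted p was under 0.05. Grey bars are wide for most genes and narrow for Ndufs1 and Ndufa10, red points are filled for 34 of 37 subunits tested in the comparison on the right, and Ndufaf3 lies right of 0 there. Lines part the roles, and 3 of the 38 subunits, Ndufs5 and Ndufa4l2 among them, are not drawn.

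Among the assembly factors Ndufaf4 had the largest fall. With IL-7 it was at 31.4 and 32.6 CPM, without IL-7 at 18.4 and 18.8 CPM, and without IL-7 with CXCL12 at 13.6 and 14.3 CPM, with no overlap between the groups. With 18 libraries its log2 change was -0.78 ± 0.16 for the loss of IL-7 (adjusted p = 0.0072) and -1.20 ± 0.16 for both steps (adjusted p = 6.6e-05). The first call was lost without either library of the IL7- cultures (adjusted p up to 0.074), and the second held without any 1 of the 4 libraries. Ndufaf3, known to act with Ndufaf4 early in assembly of the ubiquinone module, ran the other way in level, at 18.6 and 17.9 CPM with IL-7, 23.4 and 21.5 CPM without it and 23.2 and 24.2 CPM with CXCL12. Its change was not called in either fit, at 0.37 ± 0.25 for both steps with 18 libraries (adjusted p = 0.23). The difference between the pair was not tested.

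For both steps, 4 of the 7 assembly factors were called lower with 18 libraries and 6 without the high replicate, beside 21.5% and 34.2% of all genes. Ndufaf5, which hydroxylates Ndufs7, was at 12.5 and 13.0 CPM, 9.75 and 10.0 CPM, and 7.85 and 6.99 CPM over the 3 groups, a log2 change of -0.77 ± 0.24 (adjusted p = 0.019). Ndufaf6, an early-acting factor, had -0.92 ± 0.32 (adjusted p = 0.029), and Ndufaf7, a methyltransferase, had -0.63 ± 0.20 (adjusted p = 0.02). The calls of Ndufaf5, Ndufaf6 and Ndufaf7 were lost without any 1 of the 4 libraries. Ndufaf1, which helps to build the membrane arm, had -0.29 ± 0.18, and Ndufaf2, a relative of Ndufa12, had -0.70 ± 0.37. Neither was called with 18 libraries, and both were called without that replicate.

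Other respiratory genes were read from lists of the same kind. For both steps with 18 libraries, 8 of 30 complex IV genes, 7 of 20 ATP synthase genes, 4 of 12 complex III genes and 3 of 6 complex II genes were called lower, and 0, 1, 1 and 0 were called higher, beside 21.5% lower and 29.8% higher over all genes. Without the high replicate 22, 16, 9 and 4 were called lower and 1, 1, 1 and 0 higher, beside 34.2% and 31.4%. With 18 libraries their median log2 changes were -0.39, -0.65, -0.64 and -0.42. Atp5b, the catalytic subunit of ATP synthase, had -1.0 ± 0.09 (adjusted p = 4.2e-06), Sdha, the flavin subunit of complex II, had -0.45 ± 0.07 (adjusted p = 0.00014), and Uqcrc2, a core subunit of complex III, had -0.65 ± 0.09 (adjusted p = 0.00013). Of 10 complex I assembly factors not named Nduf, 7 were called lower and 1 higher, with Ecsit at -0.55 ± 0.12 (adjusted p = 0.0023) and Foxred1 at -0.44 ± 0.09 (adjusted p = 0.0019). Of 17 regulators of respiratory genes 9 were called lower and 5 higher (Gabpb1, Nfe2l2, Polg, Esrra and Ppargc1a, from 0.42 to 1.03), where the share called higher over all genes was 29.8%. Those called lower included Myc, at -2.61 ± 0.08 (adjusted p = 1.2e-09), and Pprc1, a coactivator of NRF1, at -1.30 ± 0.08 (adjusted p = 9.8e-08).

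ERK inhibitor II without IL-7 was compared with IL-7, both with CXCL12, within the 4 libraries of high Gapdh. These groups differ in IL-7 and in the inhibitor at once, and the part of each cannot be told apart. With 18 libraries 0 subunits were called higher and 0 lower (6.5% and 4.54% of all genes), with 2 lower and 0 higher at an unadjusted p under 0.05 and 0 called by DESeq2. The median log2 change was -0.18 against -0.01 for all genes tested. Ndufaf4 was called lower, from 44.8 and 47.0 CPM with IL-7 to 27.2 and 26.2 CPM, a change of -0.78 ± 0.16 (adjusted p = 0.0066), close to its -0.78 in the cultures without CXCL12. This call was lost without either library with the inhibitor (adjusted p up to 0.069). Once the high replicate was omitted, 12 subunits were called lower and 0 higher (18.6% and 11.9% of all genes). Ndufs1, at -0.25 ± 0.05 (adjusted p = 0.00099), Ndufs8, at -0.30 ± 0.07 (adjusted p = 0.0041), and Ndufv1, at -0.25 ± 0.07 (adjusted p = 0.017), were the core subunits among them. In CPM, Ndufs1 was at 159 and 152 with IL-7 and 134 and 132 with the inhibitor. Myeloid genes summed to 3666 to 3736 CPM with the inhibitor against 1838 to 1987 CPM, and stromal genes to 98.5 to 106 CPM against 34.3 to 34.8 CPM. Their part in the change was not tested.

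The IL7- with CXCL12 cultures were taken as another set of libraries. Against them, the cultures with ERK inhibitor II had 11 subunits called higher and 0 lower with 18 libraries (26.9% and 30% of all genes, 56.9% in all). Groups did not overlap for 32 higher and 3 lower (43.3% and 46% of all genes). Omitting the high replicate gave 31 higher and 0 lower (35.2% and 34.8%). Ndufa4 was at 155 and 156 CPM with the inhibitor against 77.2 and 80.2 CPM, a log2 change of 0.98 ± 0.36 with 18 libraries (adjusted p = 0.036), lost without any 1 of the 4 libraries. Among genes with a mean log2 CPM of at least 3, the largest changes with 18 libraries were those of Ndufab1 (4.73 ± 0.45, adjusted p = 2.4e-06), Ndufa12 (2.13 ± 0.44, adjusted p = 0.0012), Ndufs3 (1.49 ± 0.26, adjusted p = 0.00041) and Ndufs6, a zinc-binding subunit (1.26 ± 0.44, adjusted p = 0.028). Ndufb4, just under that level, had 2.12 ± 0.37 (adjusted p = 0.00038). Of the 4 genes past that level, the call of Ndufs6 was lost without any 1 of the 4 libraries and the others held. Dividing-cell genes summed to 6449 and 6490 CPM with the inhibitor against 2083 and 2084 CPM. Stromal genes summed to 98.5 to 106 CPM against 3927 to 4014 CPM, with 5 of 15 under 1 CPM with the inhibitor, and myeloid genes to 3666 to 3736 CPM against 862 to 865 CPM. Their part in the difference was not tested.

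Ndufab1 separated the 4 libraries of high Gapdh from the other 14. This gene, for the mitochondrial acyl carrier protein, was at 46.9 and 63.3 CPM when IL-7 was combined with CXCL12 and at 52.4 and 40.7 CPM with the inhibitor. In the other 14 libraries it was at 1.49 to 16.8 CPM, with a median of 2.63 CPM. No other Nduf gene had all 4 libraries of high Gapdh above all of the other 14, but this rested on the high replicate. There Ndufs3 was at 74.7 CPM, Ndufa12 at 160 CPM and Ndufb4 at 29.4 CPM. With that replicate left out, these genes too were higher in all 4 libraries than in every other library. With IL-7 and CXCL12 against IL-7 alone, the log2 change of Ndufab1 was 4.40 ± 0.42 (adjusted p = 8.7e-06). A difference of this size was not particular to Ndufab1. In that comparison the ATP synthase genes Atp5g2 and Atp5l were higher by 7.67 and 6.91, and Cox7c of complex IV by 6.15. Most genes of those 2 lists were not called. Ribosomal protein genes held 6.86% and 6.37% of counts with IL-7 and CXCL12 against 1.73% and 1.70% with IL-7 alone. Set and treatment cannot be told apart in these differences. The same comparison called Ndufs3, at 68.2 and 68.6 CPM against 27.1 and 27.6 CPM (1.32 ± 0.26, adjusted p = 0.002), Ndufa12, at 66.0 and 70.0 CPM against 27.1 and 26.8 CPM (1.33 ± 0.42, adjusted p = 0.028), and Ndufb3, at 54.2 and 48.1 CPM against 29.2 and 27.3 CPM (0.85 ± 0.29, adjusted p = 0.04). Ndufb4, at 14.3 and 14.9 CPM against 5.38 and 5.69 CPM, was the fifth subunit called higher. The calls of Ndufa12 and Ndufb3 were lost without any 1 of the 4 libraries compared. In this comparison 5 subunits were called higher and 1 lower, with 15.3% and 16.5% of all genes, and without the high replicate 11 and 4, with 21.2% and 30.9%. Groups did not overlap for 17 higher and 9 lower (37.1% and 42.5% of all genes). Stromal genes summed to 34.3 to 34.8 CPM with IL-7 and CXCL12 against 634 to 1093 CPM with IL-7 alone, and myeloid genes to 1838 to 1987 CPM against 185 to 251 CPM. The part of these markers in the changes was not tested. The median of the subunits was near 0 in this comparison, at 0.07. Ndufab1 and Ndufa12 are among 4 tested subunits for which RefSeq names a pseudogene by the gene's symbol plus -ps or a letter, with Ndufs6 and Ndufa11. Copies under other names were not searched for any gene. How reads shared with such copies were counted is not stated in the labels.

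**Figure D5:**
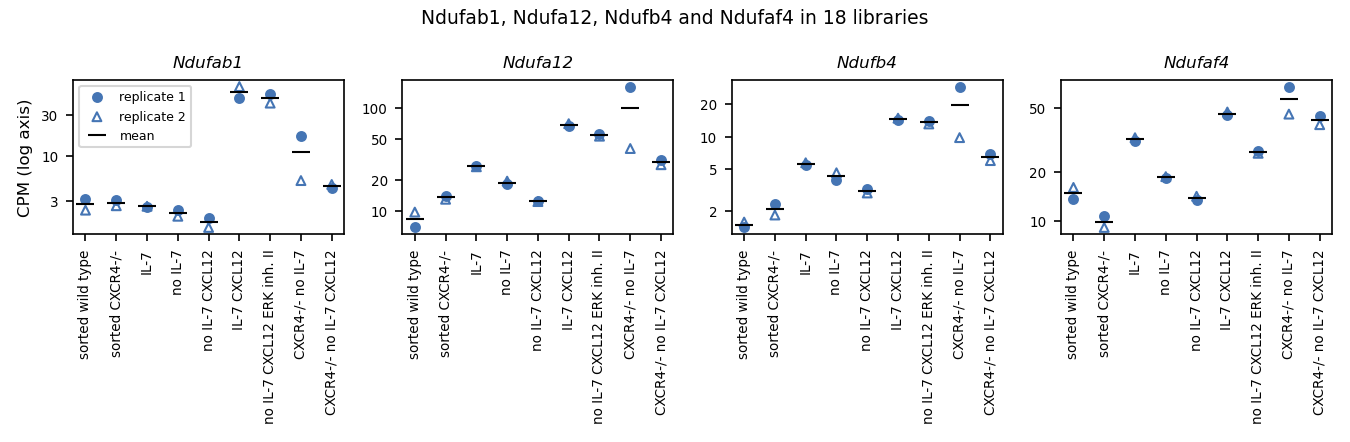
CPM on a log axis of Ndufab1, Ndufa12, Ndufb4 and Ndufaf4 in all 18 libraries, with a filled circle for replicate 1, an open triangle for replicate 2 and a bar at the mean. Ndufab1 lies between 40.7 and 63.3 CPM in the 4 libraries with CXCL12 and either IL-7 or ERK inhibitor II and at most 16.8 CPM elsewhere, and Ndufaf4 falls from the IL7+ to the IL7- and IL7- with CXCL12 cultures.

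In CXCR4-/- cultures CXCL12 was again tested without IL-7. With 18 libraries 35 of 37 subunits were called lower with CXCL12 and 0 higher (21% and 12.8% of all genes), with a median log2 change of -1.38 beside 0.00 for all genes tested. The count depended on replicate 1 of the cultures without CXCL12. Without it 8 subunits were called lower and 0 higher, with 2.46% and 5.7% of all genes, and the median was -0.34. The count was 36 without replicate 2 of that group and 0 without either replicate with CXCL12. It was also 0 when fitted on these groups alone or without the 4 libraries of high Gapdh. With 18 libraries the largest falls were those of Ndufa2 (-2.00 ± 0.49), Ndufa5 (-1.91 ± 0.46), Ndufs6 (-1.80 ± 0.44) and Ndufb7 (-1.78 ± 0.45), each at an adjusted p of 0.022. Of these, Ndufa5 was called without the high replicate too. Ndufv2 was at 533 and 164 CPM without CXCL12 and at 142 and 125 CPM with it, and without the high replicate its change was -0.28 ± 0.08 (adjusted p = 0.041). Ndufa5, an accessory subunit beside the ubiquinone module, was at 238 and 51.3 CPM without and 41.6 and 35.1 CPM with CXCL12, a change of -0.41 ± 0.10 without the high replicate (adjusted p = 0.029). Ndufs1 was at 143 and 172 CPM without and 169 and 163 CPM with CXCL12, so that its groups overlapped. Of the assembly factors 6 of 7 were called lower with 18 libraries and 2 without that replicate, Ndufaf1 (-0.37 ± 0.10, adjusted p = 0.036) and Ndufaf5 (-0.46 ± 0.13, adjusted p = 0.043).

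Whether CXCL12 acted differently by genotype label was tested as a difference of the changes. With 18 libraries 0 subunits were called in either direction (12.1% of all genes were higher and 13.1% lower, 25.2% in all), with 17 lower and 1 higher at an unadjusted p under 0.05, and DESeq2 called 7 lower and 1 higher. Ndufaf3 was called lower, at -1.14 ± 0.35 (adjusted p = 0.033), and lost without the high replicate (-0.46, adjusted p = 0.12). The median of -1.06 over the subunits turned to 0.09 without the high replicate. In that fit 4 subunits were called higher, that is, with a smaller fall in the CXCR4-/- cultures, and 0 lower (20.7% and 10.3% of all genes). They were Ndufa4, Ndufv2, Ndufa10 and Ndufs1, and Ndufaf4 was called with them. With 18 libraries the differences of Ndufa4 (-0.71) and Ndufv2 (-0.74) had the opposite sign. These 2 contrasts lie within different sets of libraries as inferred here, which no label gives.

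Across those inferred sets, the CXCR4-/- cultures had more of nearly every subunit than the cultures labelled pre-B. Without IL-7, 36 subunits were called higher and 1, Ndufa4l2, lower with 18 libraries (31% and 34.6% of all genes, 65.6% in all). The median log2 change was 1.90 with 18 libraries and 0.69 without the high replicate, which leaves 1 library in the CXCR4-/- group. Fitted on these 2 groups alone, 0 subunits were called higher and 1 lower. The largest changes with 18 libraries were those of Ndufa5 (2.68 ± 0.47), Ndufs6 (2.53 ± 0.45), Ndufa2 (2.49 ± 0.50) and Ndufc1, a small membrane-arm subunit (2.42 ± 0.42). In the fit without the high replicate they were 1.11, 1.06, 0.77 and 1.07. The spread in that fit comes from the other groups, so it cannot show variation within this group. Without the high replicate the change was 0.32 for Ndufs1, 1.01 for Ndufs7 and 1.22 for Ndufaf4. With 18 libraries Ndufs1 was called, and its call was lost on omitting any of 3 of the 4 libraries compared. With CXCL12 in both, 17 subunits were called higher and 0 lower with 18 libraries (27.3% and 35.7% of all genes, 63% in all), and 34 and 0 without that replicate (34.2% and 39.9%). Ndufa4 was at 227 and 194 CPM in the CXCR4-/- cultures against 77.2 and 80.2 CPM (1.42 ± 0.37 with 18 libraries, adjusted p = 0.0049), and Ndufaf4 at 44.6 and 39.3 CPM against 13.6 and 14.3 CPM (1.59 ± 0.16, adjusted p = 3.4e-06). Both calls held without any 1 of the 4 libraries compared. Ndufab1 (1.35 ± 0.44, adjusted p = 0.018) was lost without 3 of the 4 libraries, replicate 1 of the CXCR4-/- cultures with CXCL12 excepted, and Ndufaf2 (1.32 ± 0.38, adjusted p = 0.0084) without that replicate. Stromal genes summed to 6.87 and 10.6 CPM in the CXCR4-/- cultures with CXCL12, with 14 of 15 under 1 CPM on average, against 4014 and 3927 CPM, and dividing-cell genes to 7443 and 7831 CPM against 2083 and 2084 CPM. Myeloid genes summed to 15.0 to 15.6 CPM against 862 to 865 CPM. Without CXCL12, stromal genes were at 4.25 to 5.74 CPM against 1534 to 1567 CPM and myeloid genes at 16.7 to 20.6 CPM against 341 to 345 CPM. Their part in the difference was not tested.

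In sorted small pre-B cells, most subunits were higher in the libraries labelled CXCR4-/-. Both of these exceeded both wild-type libraries in 31 of 37 subunits, against 33.1% of all genes tested, and the median log2 change was 0.32 beside -0.01. With 18 libraries 1 subunit was called higher and 0 lower (16.6% and 17.6% of all genes): Ndufa10, at 69.0 and 69.3 CPM against 56.1 and 52.6 CPM (0.35 ± 0.09, adjusted p = 0.012), lost without replicate 2 of the wild type (adjusted p = 0.091). The fit without the high replicate called 27 higher and 1 lower (25.3% and 27.2%). The membrane arm held 16 of the 27, of 18 tested. Ndufb7 and Ndufa13, both of that arm, were at 84.5 and 74.5 CPM against 36.1 and 47.7 CPM and at 78.0 and 71.2 CPM against 34.2 and 44.9 CPM, and were named after their values were seen. Ndufb3 was the subunit called lower, at 25.9 and 22.7 CPM against 36.8 and 38.7 CPM (-0.64 ± 0.10 without that replicate, adjusted p = 6.2e-05). Ndufs1, at 118 and 122 CPM against 127 and 118 CPM, was called in neither fit.

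Ndufaf3 and Ndufaf4 were called in opposite directions in the sorted cells. Ndufaf3 was at 36.4 and 33.9 CPM in CXCR4-/- against 18.6 and 21.1 CPM (log2 change 0.82 ± 0.25, adjusted p = 0.023). Ndufaf4 was at 10.8 and 9.17 CPM against 13.8 and 16.2 CPM (-0.59 ± 0.16, adjusted p = 0.015). With 18 libraries the call of Ndufaf3 was lost without any 1 of the 4 libraries compared (adjusted p up to 0.15), and that of Ndufaf4 without replicate 2 of either group (adjusted p up to 0.11). Both held without the high replicate, with adjusted p-values of 0.00011 and 0.00023. Dividing-cell genes summed to 6458 and 5821 CPM in sorted CXCR4-/- against 1761 and 1699 CPM, and myeloid genes to 6982 and 1218 CPM against 5726 and 5665 CPM. Mature B cell genes summed to 538 to 665 CPM against 1311 to 1393 CPM. Their part in these differences was not tested.

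Ndufs5 and Ndufa4l2 were near or below detection. Ndufs5, an accessory subunit of the membrane arm with a named pseudogene, had 3 counts in all 18 libraries and was not tested. Ndufa4l2, a relative of Ndufa4 known to be induced in low oxygen, reached 0.604 CPM in a library with IL-7 and had 0 counts in both libraries with IL-7 and CXCL12 and in both CXCR4-/- cultures without IL-7. With IL-7 it had 7 and 28 counts, and without IL-7 23 and 18. Its 2 calls, lower with IL-7 and CXCL12 than with IL-7 alone and lower in the CXCR4-/- cultures without IL-7, are set against groups at 0, so that no fold is given. The first was lost without 3 of the 4 libraries compared, replicate 1 with IL-7 alone excepted (adjusted p up to 0.071), and the second held without any 1.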

How the data were processed

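RNA was measured in 18 libraries of 9 groups, 2 per group. Per the labels' protocols, RNA of flow-sorted B cells was selected for poly(A) and made into stranded libraries. The deposited table holds raw read counts per gene symbol, made by the authors. Per the submitters' processing notes STAR, featureCounts and other tools were used with build mm9. Versions, annotation and strand handling are not given in the sources used here, so that overlapping genes and near-identical copies are uncertain. ATAC-seq peaks of 8 more libraries were not used here. The table had 0 columns of no sample.

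Counts were tested with edgeR 4.0.16 (quasi-likelihood test, robust, TMM scaling, low counts removed by filterByExpr) in R 4.3.3, fitted to all 18 libraries with 1 mean per group. There were 11 contrasts, 7 within the inferred sets of libraries and 4 across them. P-values were Benjamini-Hochberg adjusted over the 14862 genes tested. A log2 change is given with its SE, and CPM uses TMM-scaled library sizes. At these totals of 17257914 to 50235192 counts, 3 counts amount to at most 0.165 CPM. These limits cover counting error only. The fit was checked on simulated counts with the spread trend over all genes and no library that stood apart. That check does not cover the wider spread of the subunits here. Replicate 2 of the IL7- cultures is titled small pre-B, and the column of replicate 2 of IL7- with CXCL12 is named so too, and both were grouped by medium. Genes named with values were the core subunits, Ndufa4 and Ndufa4l2, the assembly factors and, per comparison, up to 4 called higher and 4 lower with the largest change, given a mean log2 CPM of 3 or more. Genes called in counts of 5 or fewer, those with the NRF1 motif, and examples from the library that stood apart were added. For 1 core subunit values are not reported here, while it stays in the counts. The members and lists were chosen with earlier results of these data known. Alternatives were other scalings, filters, DESeq2 1.42.0, fits on the groups compared, a replicate block and the omission of libraries. The fit without replicate 1 of the CXCR4-/- cultures without IL-7 was chosen after seeing the data.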

Additional observations from a re-analysis of the deposited data

Results flagged for a closer look

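The change with CXCL12 without IL-7 was compared between the CXCR4-/- cultures and the cultures labelled pre-B by edgeR's quasi-likelihood test of the difference with Benjamini-Hochberg adjustment (n = 2 per group), and the genes called depended on 1 library. With 18 libraries Ndufaf3 was called, with a difference of -1.14 on the log2 scale (adjusted p = 0.033), from 0.08 in pre-B cultures and -1.06 in CXCR4-/- cultures. Without replicate 1 of the CXCR4-/- cultures without IL-7 the difference was -0.46 (adjusted p = 0.12), so that the call ended. In the fit without that replicate 5 other genes were called, none of which was called with 18 libraries. The difference was 0.28 for Ndufs1 (adjusted p = 0.013), against 0.30 with 18 libraries (adjusted p = 0.09). For Ndufa10 it was 0.35 (adjusted p = 0.006), against 0.09 (adjusted p = 0.68). Signs turned for Ndufv2, at 0.46 (adjusted p = 0.0033) against -0.74 (adjusted p = 0.29), for Ndufa4, at 0.53 (adjusted p = 0.002) against -0.71 (adjusted p = 0.33), and for Ndufaf4, at 0.41 (adjusted p = 0.046) against -0.01 (adjusted p = 1). A positive difference is a smaller fall, or a rise, in the CXCR4-/- cultures. The fit without that replicate leaves 1 library in a group, which is assumed to vary like the others.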

How the results depend on the processing

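Counts are of the 37 subunits called in either direction. Fitted on the groups compared alone, the counts were 21 in sorted cells, 30 for the loss of IL-7, 35 for CXCL12 without IL-7, 36 for both steps, 0 for CXCL12 in CXCR4-/- cultures, 16 for ERK inhibitor II against IL-7, 15 for CXCL12 with IL-7, 34 for ERK inhibitor II against none, and 1 and 34 for CXCR4-/- against pre-B cultures without and with CXCL12. Without replicate 1 of the CXCR4-/- cultures without IL-7, a fit chosen after seeing the data, the counts for contrasts that do not include that library were 28, 17, 30, 34, 12, 15, 31 and 34 in the same order, leaving out CXCL12 in CXCR4-/- cultures and the first of the last pair. DESeq2 gave 1 for the loss of IL-7, 2 for CXCL12 without IL-7 and 8 for the difference by genotype. RLE size factors gave 2 for CXCL12 without IL-7. No filter on low counts gave 3 for both steps, and a filter of 1 CPM in 2 libraries gave 2 for the difference by genotype. Without the 4 libraries of high Gapdh the counts were 2 for CXCL12 without IL-7 and 0 for CXCL12 in CXCR4-/- cultures. Without ribosomal protein genes and Gapdh they were 1 for the loss of IL-7, 2 for CXCL12 without IL-7 and 1 for the difference by genotype.

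Leaving out 1 library of the groups compared, the count ran from 0 to 1 in sorted cells (main count 1) and for CXCL12 without IL-7 (1), and was 3 throughout for both steps (5). It ran from 0 to 36 for CXCL12 in CXCR4-/- cultures (35), 0 to 35 for the difference by genotype (0), 2 to 3 for CXCL12 with IL-7 (6), 6 to 7 for ERK inhibitor II against none (11), 36 to 37 for CXCR4-/- against pre-B cultures without IL-7 (37) and 4 to 11 with CXCL12 (17). It was 0 throughout for the loss of IL-7 and for ERK inhibitor II against IL-7. A replicate block gave the same count as no block in all 11 comparisons, 37 for CXCR4-/- against pre-B cultures without IL-7 among them. Same-numbered libraries deviated together for CXCL12 in CXCR4-/- cultures (r = 0.444) and CXCL12 without IL-7 (r = 0.112) and not elsewhere. The numbers were not taken to pair libraries. The block takes 1 replicate effect common to all groups, so it cannot adjust for a pairing confined to the CXCR4-/- cultures. Such a pairing was not tested. For ERK inhibitor II against IL-7, where r was -0.169, the crossed block gave a count of 0. Among the named changes called with 18 libraries none changed sign under these alternatives. Among changes not called there, the difference by genotype did change sign without the high replicate for Ndufv2 (-0.74 to 0.46), Ndufa4 (-0.71 to 0.53) and Ndufaf4 (-0.01 to 0.41), as did the median over the subunits (-1.06 to 0.09). Precision is limited by the number of libraries, 2 per group.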
